A study of Mus musculus with 12 samples.

Results

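The 9 genes described here encode the receptors for interferons (IFNs), the kinases bound to those receptors, and STAT2 and IRF9, which act together in the transcription factor that type I IFN signals assemble. They were taken from the gene table of a mouse RNA-seq study by their symbols (Ifnar1, Ifnar2, Ifngr1, Ifngr2, Jak1, Jak2, Tyk2, Stat2 and Irf9), which found 9 of 54833 genes, and all 9 members passed the filter on low counts as did 21495 genes in all. The study asked how age alters the tissue response to intracerebral hemorrhage (ICH). Male wild-type C57BL/6 mice that were young (8–10 weeks) or aged (20–22 months) received type IV collagenase (ICH) or saline (sham) in the caudate putamen, and RNA was taken from the tissue around the injection 24 h later. Each of the 4 groups (young and aged mice, with sham surgery or ICH) held 3 samples, and each sample pooled tissue of 2 or 3 mice, so that P-values measure the spread between pools. Collagenase opens vessel walls and lets the animal's own blood enter the tissue.

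Type I IFNs (IFN-alpha and IFN-beta) bind a receptor made of the IFNAR1 and IFNAR2 chains, which carry the tyrosine kinases TYK2 and JAK1. IFN-gamma binds a receptor made of IFNGR1 and IFNGR2, which carry JAK1 and JAK2. Activated kinases phosphorylate STAT proteins, and STAT2 joins IRF9 in the factor that binds the IFN-stimulated response element (ISRE), whereas STAT pairs bind the gamma-activated site (GAS). In the brain, microglia, endothelial cells, astrocytes and neurons all carry these receptors, and leukocytes that enter with or after the blood carry them too.

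Between 28410896 and 37785160 reads were counted per sample, and the members received between 419 and 6624 counts in a sample. Levels are given as counts per 1000000 counted reads after scaling (CPM). Where genes are compared with each other, the authors' FPKM are used, which are scaled by gene length and mapped fragments. The scaling between samples is thus not the same for FPKM as for CPM. Fold changes are on the log2 scale (log2FC) from edgeR's quasi-likelihood test, and a gene is said to have risen or fallen where its P-value, adjusted over all genes tested, was under 0.05. In bulk tissue, a change in the number of cells that express a gene and a change in RNA per cell cannot be told apart. The summed levels of 8 choroid plexus markers differed widely between samples: 4120 CPM in young ICH sample 3, 1570 CPM in aged ICH sample 1 and 1990 CPM in aged ICH sample 2, against 13 to 499 CPM in the other samples. Summed striatal projection neuron markers were between 327 and 1930 CPM in the ICH samples and between 1520 and 3050 CPM in the sham samples. Counts of members are therefore also given without the 3 samples rich in choroid plexus markers.

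The Ifnar2, Ifnar1 and Ifngr2 genes lie on chromosome 16 of GRCm38 on the same strand, with Il10rb, the chain that the IL-10 and IFN-lambda receptors share, between Ifnar2 and Ifnar1. This cluster runs from 91372783 to 91565623, which is 193 kb. Stat2 lies on chromosome 10 (128270559 to 128292849) and Irf9 on chromosome 14 (55603571 to 55610030), both on the forward strand. Ifngr1 is also on chromosome 10 (19591949 to 19610229), Jak1 on chromosome 4 (101152367 to 101265282), Tyk2 on chromosome 9 (21104068 to 21131243) and Jak2 on chromosome 19 (29251828 to 29313080). The 250 bases before the RefSeq start of each member (GRCm38.p6) were searched on both strands for the ISRE letters GAAANNGAAA and the GAS letters TTCNNNGAA. All 9 members had an entry, with a pair of starts for Irf9. The Irf9 windows (55603735 to 55603984 and 55604329 to 55604578) lie inside the gene span given above. The bases before that span were therefore not searched for Irf9. The ISRE letters were found in the window of Stat2 alone among the members, 222 bases before the start, and in 2.98% of 32544 promoters of the same length. The GAS letters were found in the window of Ifnar2 alone, 214 bases before the start, and in 7.04% of those promoters. These windows are shown because they hold the matches and both genes rose after ICH in aged mice, with the matched letters in capitals and the remainder in lower case, 5′ to 3′ on the forward strand. A match is a description of the letters and not of a bound site.
Stat2, chr10:128270248-128270497: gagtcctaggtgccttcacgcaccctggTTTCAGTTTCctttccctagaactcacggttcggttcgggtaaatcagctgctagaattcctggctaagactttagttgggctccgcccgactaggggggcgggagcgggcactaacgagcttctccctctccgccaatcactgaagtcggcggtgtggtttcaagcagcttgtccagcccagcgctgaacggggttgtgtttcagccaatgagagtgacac
Ifnar2, chr16:91372533-91372782: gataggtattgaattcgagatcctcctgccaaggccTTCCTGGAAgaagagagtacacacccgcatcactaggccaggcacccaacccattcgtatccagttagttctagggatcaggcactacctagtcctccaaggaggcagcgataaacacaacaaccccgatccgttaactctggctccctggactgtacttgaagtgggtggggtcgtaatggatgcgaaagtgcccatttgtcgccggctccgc

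Across the members, 3 of 9 rose and 0 of 9 fell in the young ICH group compared with the young sham group, where 9.89% of all genes tested rose and 9.23% fell. In the aged ICH group compared with the aged sham group, 4 of 9 rose and 0 of 9 fell, where 7% of all genes rose and 6.15% fell. Ifnar2 and Ifngr1 rose at both ages, Tyk2 passed the test in young mice, and Stat2 and Irf9 passed it in aged mice. When the ICH effect was averaged over both ages, a contrast added after the values were seen, these 5 of 9 rose and 0 of 9 fell, against 16.7% and 15.8% of all genes. The median log2FC over the 9 members was 0.36 in young and 0.27 in aged mice, against 0.022 and 0.002 over all genes tested. Ifnar1, Ifngr2, Jak1 and Jak2 did not pass the test in either comparison. Every ICH sample was above every sham sample of its age for 5 of 9 members in young mice and 6 of 9 in aged mice, against 18.5% and 17.8% of all genes tested, and below for 1 of 9 (Jak2) and 0 of 9, against 16.5% and 17.3%.

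**Figure D1:**
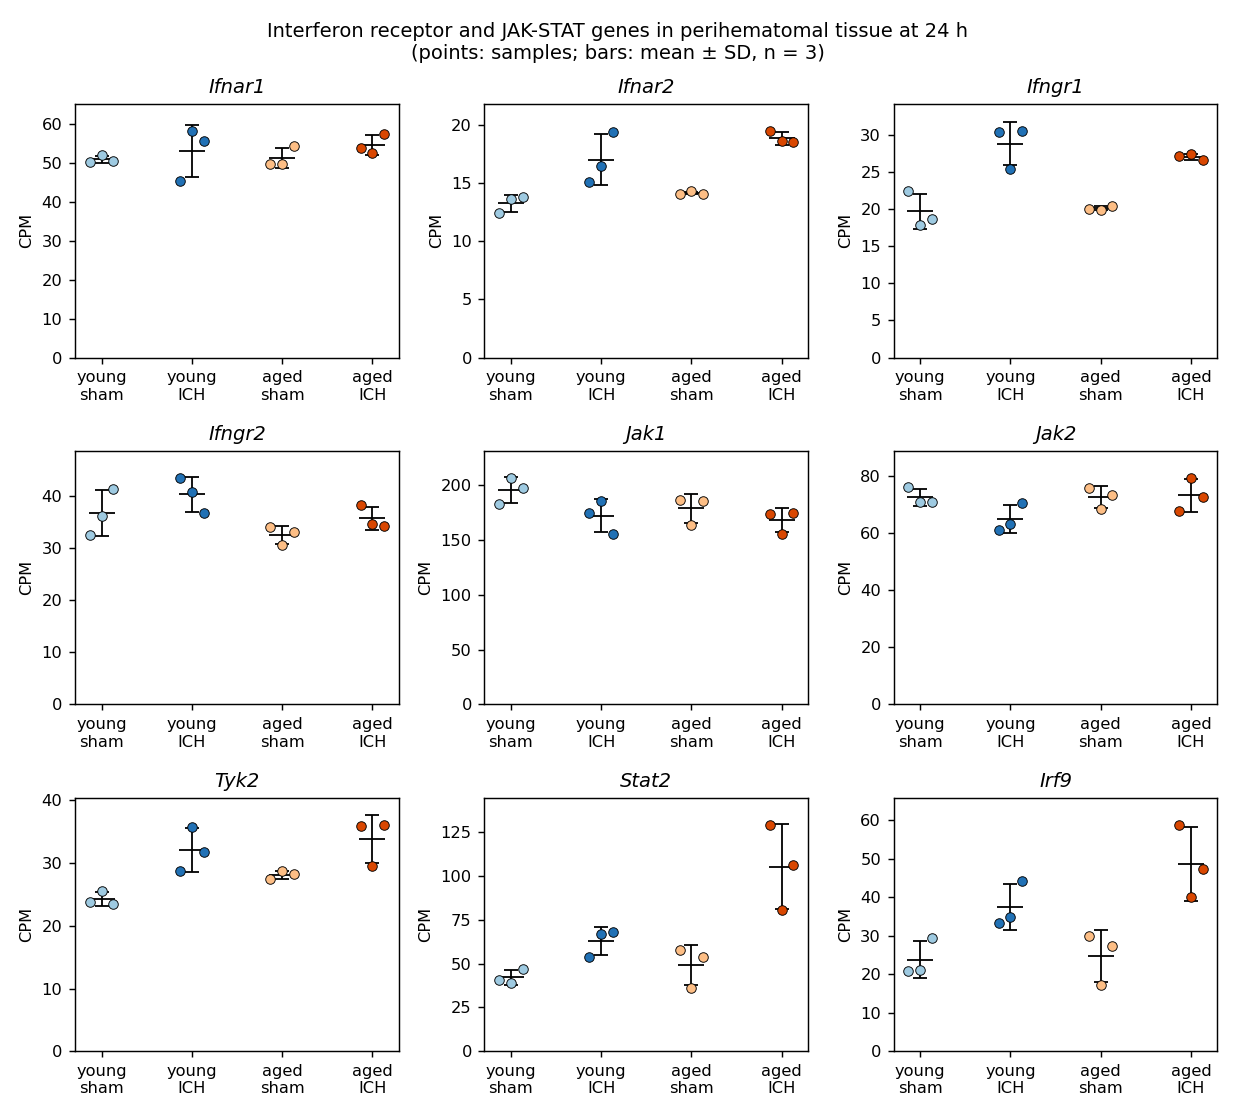
CPM of each of the 9 members in the 12 samples (vertical axis, from 0) by group (horizontal axis), with points for samples and bars for the mean and SD of 3 samples. Ifnar2, Ifngr1, Tyk2, Stat2 and Irf9 were higher in every ICH sample than in every sham sample of the same age, whereas Ifnar1 and Jak1 overlapped at both ages.

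The IFN ligands were at the floor of detection. None of the 21 ligand genes in the table passed the filter, 12 of the 21 had any count in any sample, and the highest count of a ligand gene in a sample was 2. Summed over the ligands, the counts per sample were 1 to 4 in the young sham group, 0 to 1 in the young ICH group, 1 to 3 in the aged sham group and 2 to 9 in the aged ICH group. Ifnb1, the gene of IFN-beta, had 1 count over the young sham, 2 over the aged ICH and 0 over the other groups, and Ifng, the gene of IFN-gamma, had 2, 2 and 0 likewise. No ligand gene was therefore tested, and counts this low cannot show whether a ligand transcript differed between the groups.

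Of the type I IFN receptor chains, Ifnar2 rose and Ifnar1 did not pass the test. Ifnar2, which encodes the chain that binds the ligand with high affinity, was at 12.4, 13.6 and 13.8 CPM in the young sham samples and at 15.1, 16.5 and 19.4 CPM in the young ICH samples. In aged mice it was at 14.1, 14.3 and 14.1 CPM in the sham samples and at 19.5, 18.6 and 18.5 CPM in the ICH samples. Every ICH sample was therefore above every sham sample of its age. The log2FC was 0.36 ± 0.093 (SE) in young mice (edgeR, adjusted P = 0.0215) and 0.41 ± 0.093 in aged mice (edgeR, adjusted P = 0.0167), a rise of 28.1% and 32.9%. By adjusted P, Ifnar2 passed in 15 of 20 alternative settings in young mice and 16 of 20 in aged mice.

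Ifnar1, the chain that completes the receptor and carries TYK2, was at 50.4, 52.1 and 50.5 CPM in the young sham samples and at 45.5, 58.3 and 55.6 CPM in the young ICH samples. In aged mice it was at 49.8, 49.8 and 54.4 CPM in the sham samples and at 53.9, 52.5 and 57.5 CPM in the ICH samples. The groups overlapped at both ages. The log2FC was 0.059 (approximate 95% interval −0.13 to 0.24) in young and 0.09 (−0.10 to 0.28) in aged mice, with edgeR adjusted P-values of 0.673 and 0.525.

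Of the IFN-gamma receptor chains, Ifngr1 rose and Ifngr2 did not pass the test. Ifngr1, the chain that binds IFN-gamma, was at 22.4, 17.9 and 18.7 CPM in the young sham samples and at 30.4, 25.4 and 30.5 CPM in the young ICH samples. The aged values were 20.0, 19.9 and 20.4 CPM in the sham samples and 27.1, 27.4 and 26.6 CPM in the ICH samples. The ICH samples lay above the sham samples at both ages. Ifngr1 rose by a log2FC of 0.55 ± 0.094 (SE) in young mice (edgeR, adjusted P = 0.00347) and 0.43 ± 0.094 in aged mice (edgeR, adjusted P = 0.0145). By adjusted P, the young call held in 20 of 20 alternative settings and the aged call in 16 of 20, with adjusted P-values up to 0.153, and neither met the study's criterion of a 1.5-fold change.

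Ifngr2, the second chain that carries JAK2, was at 32.5, 36 and 41.3 CPM in the young sham samples and at 43.4, 40.6 and 36.6 CPM in the young ICH samples, which overlapped. Aged mice had 33.9, 30.6 and 33.0 CPM in the sham samples and 38.2, 34.6 and 34.2 CPM in the ICH samples, where every ICH sample was slightly above every sham sample. The log2FC was 0.13 at both ages, with intervals of −0.073 to 0.34 in young and −0.075 to 0.34 in aged mice and edgeR adjusted P-values of 0.352 and 0.393.

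Read along the chromosome 16 cluster, the genes in order were Ifnar2, Il10rb, Ifnar1 and Ifngr2. Il10rb rose by a log2FC of 0.78 in young mice (edgeR, adjusted P = 0.0161) and 0.63 in aged mice (edgeR, adjusted P = 0.0477). The first pair of genes in the cluster thus rose at both ages and the second pair did not pass the test at either. A difference between the pairs as such was not tested. Ifnar2 and Il10rb both share exon bases with the overlapping gene Gm21970, which had 0 counts in every sample.

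Among the kinases, Tyk2 rose in young mice, and Jak1 and Jak2 did not pass the test at either age. Jak1, the kinase that serves both IFN receptors and many cytokine receptors, had the highest FPKM of the members in every group, with means between 24.1 and 26. Its CPM values were 183, 207 and 198 in the young sham samples and 175, 186 and 156 in the young ICH samples, and 187, 164 and 186 in the aged sham samples and 174, 156 and 175 in the aged ICH samples. The groups overlapped at both ages, and the log2FC was −0.18 (edgeR, adjusted P = 0.146) in young and −0.09 (edgeR, adjusted P = 0.52) in aged mice.

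Jak2, the kinase of IFNGR2 and of the erythropoietin and growth hormone receptors, was at 76.2, 71.0 and 70.9 CPM in the young sham samples and at 61.2, 63.3 and 70.7 CPM in the young ICH samples. In aged mice it was at 76.0, 68.6 and 73.6 CPM in the sham samples and at 67.8, 79.5 and 72.8 CPM in the ICH samples. The young ICH samples all lay below the young sham samples, by a narrow margin, and the aged groups overlapped. The log2FC was −0.16 in young mice (edgeR, adjusted P = 0.164) and 0.012 in aged mice (edgeR, adjusted P = 0.939).

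Tyk2, the kinase of IFNAR1, had the lowest FPKM of the members in every group, with means between 3.39 and 5.1. It was at 23.8, 25.5 and 23.5 CPM in the young sham samples and at 28.8, 35.8 and 31.8 CPM in the young ICH samples. In aged mice it was at 27.4, 28.7 and 28.3 CPM in the sham samples and at 35.9, 29.5 and 36.1 CPM in the ICH samples. The ICH samples were above the sham samples at both ages, although aged ICH sample 2 was close to the highest aged sham sample. Tyk2 rose by 32.2% in young mice (log2FC 0.40 ± 0.095 SE, edgeR, adjusted P = 0.0137), and in aged mice its log2FC was 0.27 ± 0.094 (edgeR, adjusted P = 0.086). It shares 554 exon bases, 8.07% of its exon length, with 1700084C06Rik on the other strand, which had at most 1 count in a sample.

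**Figure D2:**
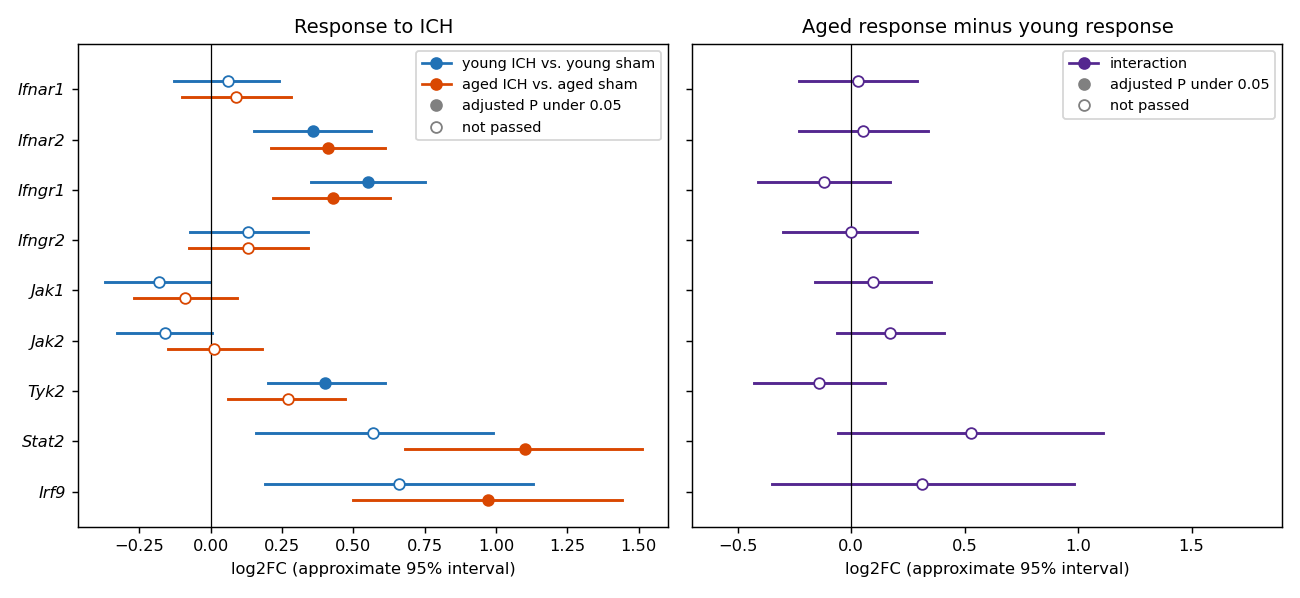
Log2FC (horizontal axis) of the 9 members with approximate 95% intervals (lines), for ICH vs. sham in young and aged mice (left) and for the aged response minus the young response (right). Filled points passed an adjusted P of 0.05. Every interval of the right panel includes 0.

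Stat2 and Irf9, which encode members of the ISRE-binding factor, had the highest log2FC of the members at both ages. Stat2 was at 40.8, 39.0 and 47.1 CPM in the young sham samples and at 53.9, 66.6 and 68.0 CPM in the young ICH samples. Aged mice had 57.5, 36 and 53.8 CPM in the sham samples and 129, 80.4 and 106 CPM in the ICH samples. The aged ICH samples were above all samples of the other groups, and the young ICH samples were above the young sham samples but overlapped the aged sham samples. Stat2 rose 2.14-fold in aged mice (log2FC 1.10 ± 0.19 SE, edgeR, adjusted P = 0.00661), and its log2FC in young mice was 0.57 ± 0.19 (edgeR, adjusted P = 0.0557). In FPKM, Stat2 ranked 5th of the members in the young sham group and 2nd in the aged ICH group (mean 18.4 ± 4.19 SD, n = 3), where its samples overlapped those of Jak2 (mean 15.1 ± 1.25 SD).

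Irf9 was at 20.9, 21.1 and 29.4 CPM in the young sham samples and at 33.4, 34.8 and 44.4 CPM in the young ICH samples. The aged values were 30.0, 17.2 and 27.3 CPM in the sham samples and 58.9, 40.0 and 47.3 CPM in the ICH samples. The ICH samples lay above the sham samples at both ages. Irf9 rose 1.96-fold in aged mice (log2FC 0.97 ± 0.22 SE, edgeR, adjusted P = 0.0153), and its log2FC in young mice was 0.66 ± 0.22 (edgeR, adjusted P = 0.0522). Irf9 shares 123 exon bases, 2.28% of its exon length, with Rnf31 on the same strand.

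The young calls of Stat2 and Irf9 turned on the method, since 5 of 9 members (these genes added to Ifnar2, Ifngr1 and Tyk2) passed with DESeq2, with no filter on low counts, and with limma on log2(FPKM + 1) or log2(FPKM + 0.1). The shares of all genes that passed under these settings were not counted, so these member counts have no baseline. Under the study's own thresholds applied to the edgeR values (fold change above 1.5 with an unadjusted P under 0.05, called the study's criterion), Irf9 alone was counted in young mice, where 8.66% of all genes were counted as higher, and Stat2 and Irf9 in aged mice, where 7.24% were. Ifnar2, Ifngr1 and Tyk2 changed by less than 1.5-fold. The aged count of 4 of 9 was 1 of 9 (Stat2) without aged ICH sample 1, 2 of 9 without aged sham sample 1 or 2, 5 of 9 without aged ICH sample 2, and 1 of 9 (Stat2) without the 3 samples rich in choroid plexus markers, where aged ICH is a single sample assumed to vary like the other groups. The young count of 3 of 9 was 5 of 9 without aged ICH sample 2 or aged sham sample 2, 2 of 9 without young ICH sample 3 or young sham sample 1 or 2, and 2 of 9 (Ifngr1 and Tyk2) without the choroid plexus-rich samples. The averaged count of 5 of 9 was 5 with any single sample left out and without those 3 samples, and held the same genes in the latter.

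Age was compared next. Between sham groups, with aged set against young, 0 of 9 members changed by edgeR, against 0.102% of all genes tested, and 0 of 9 by DESeq2. At an unadjusted P under 0.05, where the share over all genes was not counted, 1 of 9 passed. The one was Tyk2, whose aged sham samples were all above the young sham samples (log2FC 0.21, interval 0.0046 to 0.42, edgeR, adjusted P = 0.398). The aged sham samples of Ifnar2 also all lay above the young sham samples. In all, 2 of 9 members were apart above and 0 of 9 below, against 9.81% and 11.2% of all genes tested. Under the study's criterion 0 of 9 were counted, against 3.72% of all genes.

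In the aged ICH group compared with the young ICH group, 0 of 9 members changed by edgeR, against 0.0558% of all genes tested. At an unadjusted P under 0.05, where the share over all genes was not counted, 2 of 9 (Jak2 and Stat2) passed. Stat2 was higher in all 3 aged ICH samples than in all 3 young ICH samples (log2FC 0.74 ± 0.19 SE, a 1.67-fold difference, interval 0.33 to 1.15, edgeR, adjusted P = 0.232). It was the only member apart, with 1 of 9 above and 0 of 9 below, against 6.9% and 6.42% of all genes tested. DESeq2 called Stat2 in this comparison (adjusted P = 0.0203), and so did the study's criterion, which counted 2.21% of all genes as higher. The share of all genes that DESeq2 called was not counted. The edgeR adjusted P of Jak2 was 0.504 with a log2FC of 0.17.

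The interaction, which is the aged response to ICH minus the young response, passed for 0 of 9 members by edgeR, against 0% of all genes tested. It also passed for 0 of 9 by DESeq2 and for 0 of 9 at an unadjusted P under 0.05. Under the study's criterion 0 of 9 were counted, against 1.56% of all genes. The interaction of Stat2 was 0.53 (interval −0.057 to 1.11, unadjusted P = 0.0727 from edgeR's model over all genes, adjusted P = 1), that of Irf9 was 0.31 (−0.35 to 0.98) and that of Tyk2 was −0.14 (−0.43 to 0.15). A difference in response between the ages was thus not shown for any member, including those that passed the test at a single age.

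Ratios between partner genes were formed from FPKM within each sample, which removes any scaling that acts on both partners, and were chosen after the values were seen. Except for Stat2 to Irf9, each ratio set a member called above against a partner not called in the same samples. The P-values of the ratios therefore largely restate those calls and are not separate evidence. Their adjustment does not cover the choice of pairs. The ratio of Ifnar2 to Ifnar1 was between 0.437 and 0.489 in the young sham, 0.506 and 0.622 in the young ICH, 0.464 and 0.513 in the aged sham, and 0.574 and 0.645 in the aged ICH samples. The ICH samples were higher than the sham samples at both ages. Averaged over the ages, the log2 ratio was 0.31 higher after ICH (exact two-sided permutation of the surgery labels within each age, P = 0.005, the smallest that 400 arrangements allow, and 0.01 after Benjamini-Hochberg adjustment over 4 ratios).

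The ratio of Tyk2 to Jak1 was between 0.125 and 0.137 in the young sham, 0.173 and 0.215 in the young ICH, 0.154 and 0.185 in the aged sham, and 0.199 and 0.218 in the aged ICH samples, again without overlap within an age. Its log2 difference was 0.47 (exact permutation P = 0.005, adjusted 0.01). The ratio of Ifngr1 to Ifngr2 overlapped in young mice, where young sham sample 1 was at 0.911 and the young ICH samples ranged from 0.828 to 1.1, and its log2 difference was 0.36 (exact permutation P = 0.015, adjusted 0.02).

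For Stat2 and Irf9 the ratio was between 1.46 and 1.77 in the young sham, 1.39 and 1.74 in the young ICH, 1.74 and 1.9 in the aged sham, and 1.82 and 2.04 in the aged ICH samples, so that sham and ICH overlapped at both ages. The log2 difference between ICH and sham was -0.10 in young and 0.11 in aged mice, and 0.0047 averaged over the ages (exact permutation P = 0.955), and every aged ICH ratio was above every young ICH ratio.

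**Figure D3:**
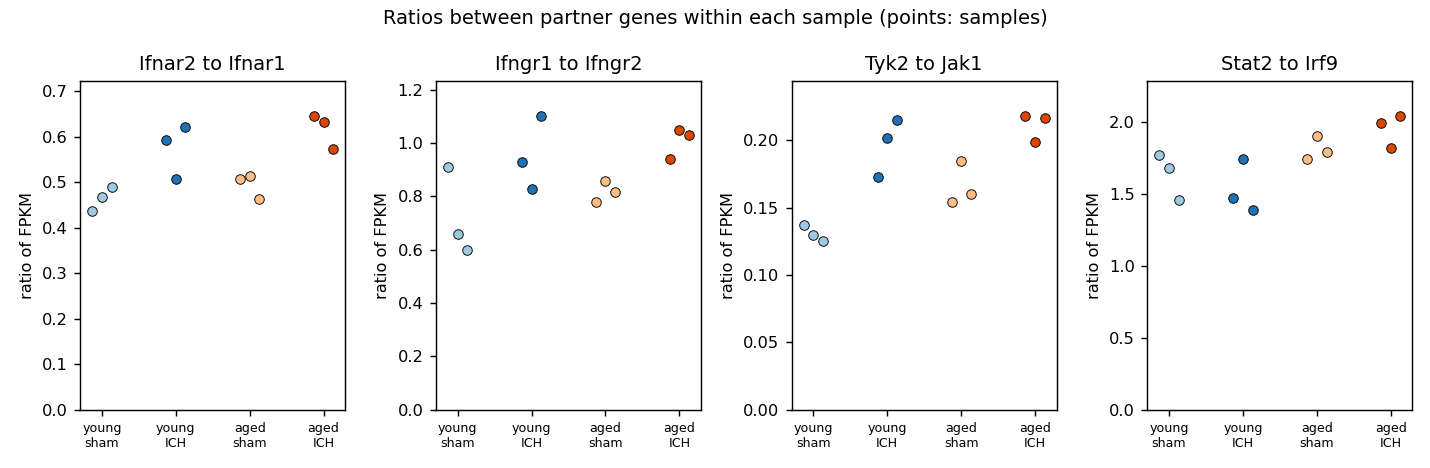
Ratio of FPKM between partner genes (vertical axes, from 0) in each of the 12 samples (points) by group. Ifnar2 to Ifnar1 and Tyk2 to Jak1 were higher in every ICH sample than in every sham sample of the same age, whereas the ratio of Stat2 to Irf9 overlapped between sham and ICH at both ages.

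Of 8 other JAKs, STATs and IFN receptor chains, 6 rose in young and 4 rose in aged mice, and none fell. Of all genes tested, 9.89% rose and 9.23% fell in young mice, and 7% rose and 6.15% fell in aged mice. Stat3, which serves IL-6 type cytokines, rose at both ages (log2FC 1.03 and 0.93, edgeR, adjusted P = 0.00224 and 0.00612). Stat5a rose too (1.08 and 0.77, edgeR, adjusted P = 0.00201 and 0.0117), whereas its close relative Stat5b did not pass the test (−0.089 and −0.12). Jak3, the kinase of the common gamma chain, rose at both ages (0.60 and 0.75, edgeR, adjusted P = 0.0072 and 0.00558). Ifnlr1, the specific chain of the IFN-lambda receptor, rose in young mice (log2FC 2.28, edgeR, adjusted P = 0.00808) and was at 0.86 in aged mice (edgeR, adjusted P = 0.204). With aged set against young, its log2FC was 1.42 between sham groups (edgeR, adjusted P = 0.29) and 0.0077 between ICH groups (edgeR, adjusted P = 0.997). The interaction of Ifnlr1 was not called (log2FC -1.42, edgeR, unadjusted P = 0.0478). Stat6, the STAT of IL-4, rose in young mice at 0.37 (edgeR, adjusted P = 0.0403) and was at 0.36 in aged mice (edgeR, adjusted P = 0.0587).

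**Figure D4:**
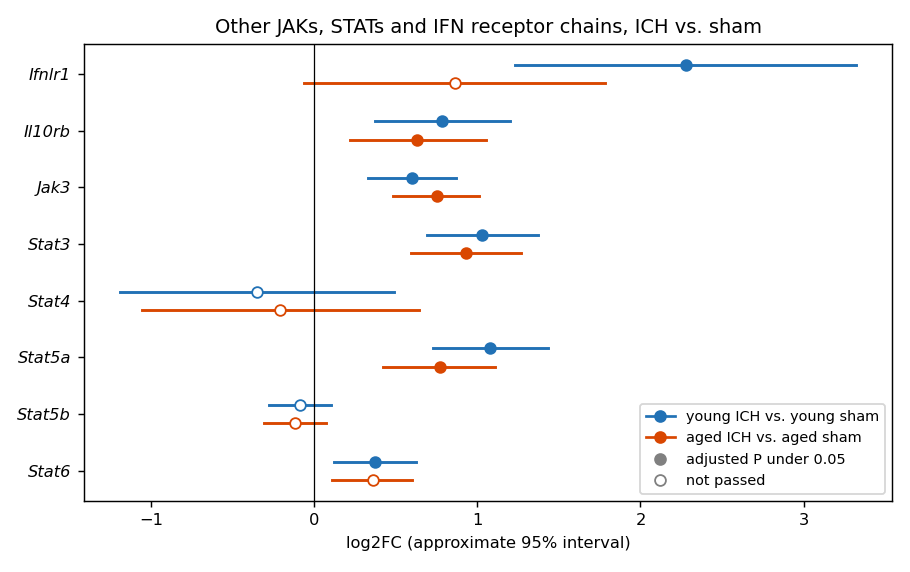
Log2FC (horizontal axis) with approximate 95% intervals (lines) of 8 other JAK, STAT and IFN receptor genes for ICH vs. sham in young and aged mice. Filled points passed an adjusted P of 0.05. Stat3, Stat5a, Jak3 and Il10rb passed at both ages, and Stat4 and Stat5b at neither.

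Among 14 negative regulators of the pathway, 5 rose and 2 fell in young mice and 6 rose and 1 fell in aged mice, where 9.23% and 6.15% of all genes tested fell, a share near that of the falls here, and 9.89% and 7% rose. Socs3, a feedback inhibitor of JAKs, rose most of the regulators named (log2FC 2.17 and 1.81, edgeR, adjusted P = 0.0046 and 0.0137), and the phosphatase genes Ptpn6 (0.72 and 0.56) and Ptpn1 (0.30 and 0.33) also rose at both ages. Of 8 other IFN regulatory factors, 3 rose in young and 4 in aged mice. Irf5 (0.89 and 0.65), Irf3 (0.59 and 0.45) and Irf8 (0.52 and 0.62) rose at both ages, and Irf1 rose in aged mice (0.96, edgeR, adjusted P = 0.00915) with a log2FC of 0.37 in young mice (adjusted P = 0.18). Of 14 receptors that use the same kinases, 7 rose in young and 6 in aged mice, among them the IL-6 receptor Il6ra (1.14 and 0.85) and the IL-4 receptor Il4ra (1.53 and 1.55).

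The genes that these receptors switch on were counted as lists. Of 25 type I IFN targets, 3 rose in young mice and 16 in aged mice, with 0 falling and a median log2FC of 0.62 and 1.26, and the young count is near the share over all genes (9.89% rose in young and 7% in aged mice). The 3 in young mice were Eif2ak2 (0.81), Oas2 (0.88) and Ifitm3 (1.09), and Trim30a (1.33), Ddx58 (1.18) and Ifitm3 (1.52) had the smallest P-values in aged mice. Of 19 IFN-gamma targets, 7 rose in young and 16 in aged mice, with medians of 0.91 and 1.37, and the smallest P-values were those of Gbp6 in young mice (log2FC 1.36) and Iigp1 in aged mice (1.84). The interaction passed for 0 of 25 and 0 of 19 (edgeR and DESeq2), with 0 and 0 at an unadjusted P under 0.05. A difference in response was thus not shown for single genes. The fitted interaction was above 0 for 25 of 25 type I targets (median 0.61) and 18 of 19 IFN-gamma targets (median 0.39). Over all genes tested its median was -0.005, with quartiles of -0.163 and 0.116. Between the ICH groups, the type I targets were higher in aged mice for 25 of 25, with 0 called by edgeR, 1 by DESeq2, 17 at an unadjusted P under 0.05 and 16 under the study's criterion, which counted 2.21% of all genes as higher. The IFN-gamma targets were higher in aged mice for 18 of 19. Of these targets, 0 were called by edgeR, 2 by DESeq2, 10 at an unadjusted P under 0.05 and 10 under the study's criterion. Over all genes tested, the median log2FC between the ICH groups was -0.005. The shares of all genes at an unadjusted P under 0.05 and called by DESeq2 were not counted. Genes of a list vary together across samples and are not independent counts.

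The samples that stood highest and lowest for Stat2 and Irf9 in the aged groups were the same for the summed type I IFN targets. These targets summed to 952 CPM in aged ICH sample 1, 569 in sample 2 and 627 in sample 3, and to 405, 178 and 338 CPM in aged sham samples 1, 2 and 3. In the young groups they summed to 242, 203 and 352 CPM in the sham samples and to 346, 355 and 521 CPM in the ICH samples. Stat2 and Irf9 are themselves IFN targets as background knowledge, and the lists do not include them.

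Markers of other cells moved with the ICH groups. Summed neutrophil markers (15 genes) were between 30.9 and 39.5 CPM in the young sham, 146 and 332 in the young ICH, 24.8 and 68.3 in the aged sham and 180 and 229 in the aged ICH samples, with Elane at 0 in both young groups, and 8 and 7 of 10 tested rose in young and aged mice. Monocyte and macrophage markers (14 genes) summed to 166 to 187, 329 to 430, 148 to 265 and 359 to 438 CPM in the same order of groups, and 7 and 6 of 14 rose. The shares over all genes tested were 9.89% and 7% that rose and 9.23% and 6.15% that fell, in young and aged mice. Endothelial markers summed to 314 to 375, 434 to 453, 347 to 397 and 398 to 485 CPM. T cell markers (10 genes) summed to 28.7 to 42.9, 16.9 to 35.7, 26.5 to 36.1 and 11.8 to 26 CPM, and 1 and 0 of 8 tested rose. General neuronal markers (10 genes) were lower in every ICH sample than in every sham sample of its age, at 8180 to 9470, 5940 to 7610, 7920 to 8610 and 6500 to 7150 CPM. Oligodendrocyte markers (9 genes) were lower in every aged ICH sample (4410 to 5110 CPM) than in every aged sham sample (5450 to 7000 CPM). In young mice the oligodendrocyte sums overlapped, at 4940 to 8460 CPM in the sham and 5840 to 7670 CPM in the ICH samples. Summed microglia markers (12 genes) overlapped between the groups, at 475 to 566, 495 to 584, 493 to 533 and 504 to 574 CPM. Single microglia markers moved both ways, as 0 rose and 2 fell in young mice and 1 rose and 2 fell in aged mice. Astrocyte markers (10 genes) summed to 5790 to 6190, 6330 to 6930, 5880 to 6660 and 6380 to 6750 CPM. Of these, 5 rose and 0 fell in young mice, and 3 rose and 1 fell in aged mice. The part of these shifts in cell markers in the rises of Ifnar2, Ifngr1, Tyk2, Stat2 and Irf9 was not tested.

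**Figure D5:**
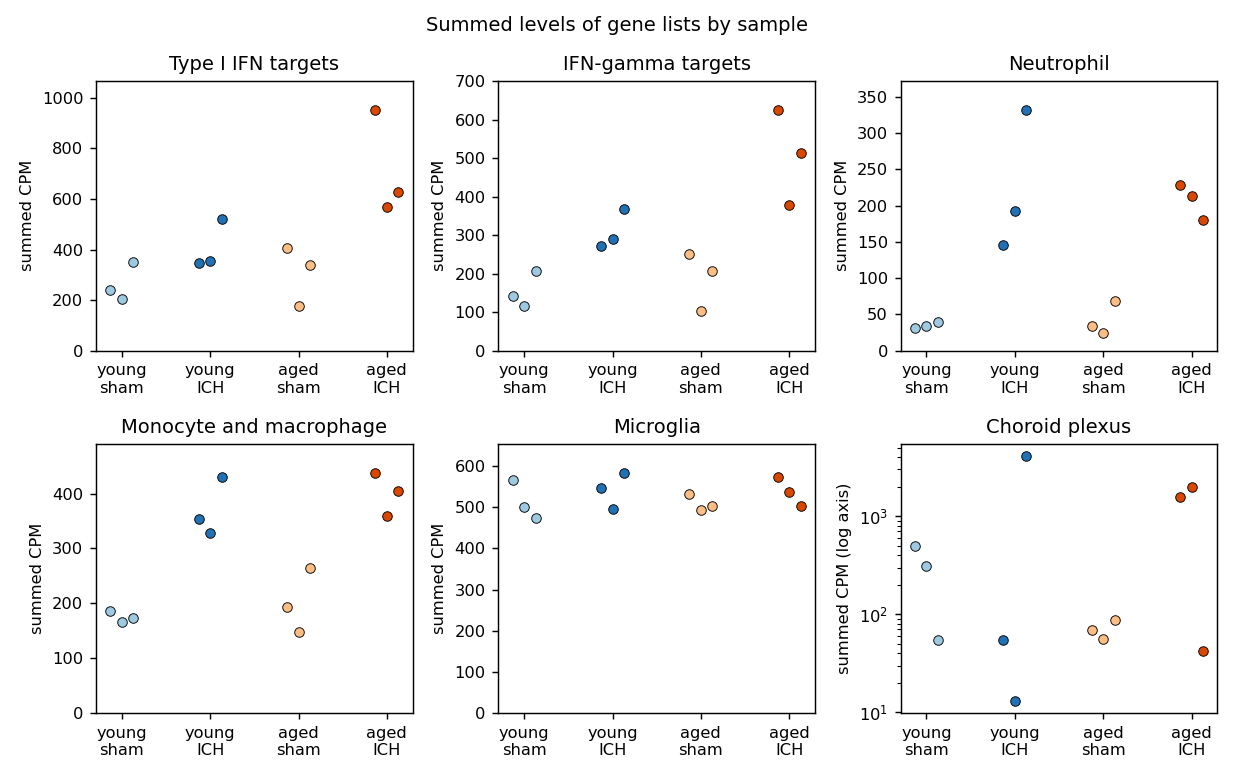
Summed CPM of 6 gene lists (vertical axes, from 0 except for choroid plexus, which has a log axis) in each of the 12 samples (points) by group. Neutrophil and monocyte markers were higher in every ICH sample than in every sham sample of its age, microglia markers overlapped, and choroid plexus markers exceeded 1000 CPM in 3 ICH samples.

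For each member, the genes most like it were those with the highest Pearson correlation of log2 CPM over the 12 samples, which share the group differences and are described without a test. Stat2 was closest to Parp12 (r = 0.991) and Gbp7 (0.986), and Irf9 to Gbp3 (0.989) and the Fc receptor gene Fcgr1 (0.987). Ifnar2 was closest to Il11 (0.972) and Psme2 (0.97), Ifngr1 to Rps26 (0.972) and Ucp2 (0.968), and Tyk2 to Cyp4v3 (0.969) and Gm27209 (0.966). Jak1 was closest to Pcdh7 (0.982) and Fhod3 (0.975), Ifngr2 to Tor1a (0.949) and Cenpm (0.946), Jak2 to Gm37818 (0.912) and Nup98 (0.885), and Ifnar1 to Ift88os (0.914) and Gm19680 (0.887). No member was among the closest pair of another.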

How the data were processed

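RNA-seq libraries from the perihematomal caudate putamen of 12 pooled samples were used, 3 in each of the 4 groups that the sample labels give. The authors aligned clean paired-end reads with HISAT2 to GRCm38.p6, used featureCounts for gene counts, and deposited raw counts beside FPKM in a single table. The FPKM values were deposited by the authors as scaled by gene length and mapped fragments. Strand setting and the treatment of reads that map to several places are not given in the sources used here.

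Counts of all 54833 genes were filtered with filterByExpr (minimum count 10), which left 21495, scaled by TMM (factors 0.954 to 1.04), and fitted with edgeR 4.0.16 (glmQLFit and glmQLFTest, R 4.3.3) as 4 group means, with Benjamini-Hochberg adjustment over all genes tested. The study's methods name DESeq2 with an unadjusted P under 0.05 and a fold change over 1.5 (or under 0.67), and these thresholds were applied here, as an alternative, to the edgeR values. Other alternatives were DESeq2 1.42.0 with adjusted P, RLE scaling, no filter, only the groups compared, a replicate block, limma 3.58.1 on log2(FPKM + 1) and log2(FPKM + 0.1), and leaving out each sample. The averaged contrast, the fit without choroid plexus-rich samples and the partner ratios were added after the values were seen. The test was checked on simulated counts. Intervals are approximate 95% intervals from the fitted SE. All members were named. For each gene list, the text names genes with the smallest P-values in each ICH comparison. The members and lists were chosen with earlier results of these data known. Promoter windows come from RefSeq (GRCm38.p6) and gene positions and exon overlaps from the GENCODE annotation of GRCm38. No per-sample column was left unused. A gene of the pathway is not reported here.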

Additional observations from a re-analysis of the deposited data

How the results depend on the processing

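The number of members that changed in young mice was 3, and it was 1 under the study's criterion and 5 with DESeq2, with no filter on low counts, with the replicate block, and with limma on log2(FPKM + 1) or log2(FPKM + 0.1), and 2 to 5 when single samples were left out. With only the groups compared it was 4 (Ifngr1, Tyk2, Stat2 and Irf9), and Ifnar2 did not pass. In aged mice it was 4, with 2 under the study's criterion, 1 without the choroid plexus-rich samples and 1 to 5 when single samples were left out. Between the ICH groups it was 0, with 1 (Stat2) under the study's criterion and 1 with DESeq2. Averaged over both ages it was 5, with 2 under the study's criterion and 6 (Ifngr2 added) with limma at both pseudocounts. The interaction and the sham comparison gave 0 under all settings run. Shares over all genes were counted for the main edgeR fit and the study's criterion alone, and not for the other settings. The cause of these shifts was not tested.

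Values that changed sign were all close to 0 and none was called. For Jak2 between sham groups, the log2FC was -0.0085 with DESeq2, -0.0084 with RLE scaling, -0.0032 with no filter, -0.00028 with the replicate block and -0.0047 without the choroid plexus-rich samples. The interaction of Ifngr2 was 0.0024 with DESeq2, 0.0029 with RLE scaling and 0.0006 with no filter, and the averaged log2FC of Jak2 was 0.0044 with limma at both pseudocounts.

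Leaving out single samples moved Ifnar1 between -0.0074 and 0.16 in young mice and Jak2 between -0.049 and 0.066 in aged mice. Between sham groups it moved Ifnar1 between -0.034 and 0.032, Ifngr1 between -0.035 and 0.13, Jak2 between -0.034 and 0.04 and Irf9 between -0.10 and 0.27. Between ICH groups it moved Ifnar1 between -0.059 and 0.11 and Jak1 between -0.11 and 0.024. In the interaction it moved Ifnar1 between -0.069 and 0.11, Ifnar2 between -0.026 and 0.16 and Ifngr2 between -0.10 and 0.077.

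No pairing of samples by replicate number was seen, as correlations of deviations between same-numbered samples ran from -0.454 to 0.235 and 5 of 18 were above 0.1. With 3 samples in each group, these correlations cannot exclude a shared batch. The replicate block gave 5 members in young mice, as above, and changed no other count of members. Members had at least 419 counts in every sample, whereas the ligands had at most 2.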
